A study of Mus musculus with 24 samples.

Results

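The 10 genes described here encode enzymes and a growth inhibitor of the NRF2 programme in mouse liver, glutathione transferases apart. They are Nqo1, Cbr1, Ephx1, Ugdh, Gclc, Gclm, Gsr, Txnrd1, Srxn1 and Osgin1. They were chosen by gene name with earlier results of these data known, and were found by matching Ensembl identifiers to symbols. All 10 were among the 54532 genes counted, and all 10 were among the 15090 genes that passed the filter on low counts. Their counts ran from 77 to 189 per library for the least counted, Nqo1, to 3970 to 11582 for Ephx1.

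The study measured liver mRNA over a day in mice with and without the PAR bZip transcription factors, which oscillate under clock control and relay time to metabolic genes. One genotype was PAR bZip proficient (Hlf+/+/Dbp+/+/Tef+/+), here called wild type, and the other deficient (Hlf-/-/Dbp-/-/Tef-/-), here called knockout. All mice were 12 to 16 weeks old and fed ad libitum, and liver was sampled at 6 zeitgeber times (ZT, hours from lights on), every 4 h from ZT04 to ZT24. Each of the 12 groups of genotype and time held 2 libraries, 1 with the letter I in its label and 1 with the letter P, which makes 24 in all. The labels do not say what the letters mean, which parts of the 3 genes were deleted, or whether both libraries of a group are from different animals. P-values here therefore reflect only how these samples scatter, and that scatter may be technical. Where 2 values are given for a group, the library of letter I comes first.

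NRF2, encoded by Nfe2l2, is a transcription factor held at low levels by KEAP1, which presents it for degradation. Oxidants and electrophiles modify KEAP1, after which NRF2 accumulates, pairs with small MAF proteins and binds antioxidant response elements near genes of detoxification, glutathione synthesis and thiol reduction. In liver this programme is known for handling reactive products of drugs and other foreign compounds. PAR bZip proteins bind a different sequence, the D-box.

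Totals ran from 14613001 to 19288322 counts per library. The deleted genes were low in all 12 knockout libraries, each below all 12 wild-type libraries, at 0.0199 ± 0.0383 CPM for Dbp, 14.7 ± 9.82 CPM for Tef and 1.55 ± 1.02 CPM for Hlf (SD, n = 12). CPM is the count of a gene scaled to the total of its library. The corresponding wild-type levels were 15.4 ± 20.3, 185 ± 103 and 72.7 ± 18.1 CPM. The 10 hepatocyte markers summed to between 86190 and 116500 CPM in wild type and between 56240 and 80880 CPM in the knockout. Of these, 6 were called lower and 0 higher (edgeR, averaged over the day), beside 21.1% and 12.1% of all genes. In bulk tissue, fewer cells of a type, less RNA per cell and lower expression of the marker genes themselves cannot be told apart. The 6 wild-type libraries of letter I stood apart: their deviation from the median library correlated with GC content across genes at r of 0.211 to 0.648, against −0.305 to 0.0538 in the other 18. In the wild-type libraries of letter I this r was 0.581 at ZT04, 0.609 at ZT16 and 0.648 at ZT20. It was 0.309 at ZT08, 0.267 at ZT12 and 0.211 at ZT24. Results are therefore also given within each letter.

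RefSeq promoter windows (GRCm38.p6, 250 bases before to 50 bases after a start) were at hand for 8 of the 10 genes, as 10 windows because Txnrd1 has 3 starts. The core of the antioxidant response element was searched on both strands as TGACNNNGC and as TGAGNNNGC. At least 1 of these forms was found in 5 of the 10 windows, 1 each of Ugdh, Gclm, Txnrd1, Srxn1 and Osgin1, and in 27.8% of all 32851 windows of the same length (12.4% for the first form and 17.6% for the second). The D-box, searched as TTANGTAA, was found in 0 of the 10 windows and in 2.32% of all windows. The E-box of the clock, searched as CACGTG, was found in 0 of the 10 and in 7.15% of all. A match is a description of the letters and not a shown site of binding.

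The parts of 3 windows that lie outside annotated exons are given for the gene called higher in the knockout (Ugdh), the gene with the largest fall (Osgin1) and the gene with 3 matches in its window (Srxn1). Capitals mark matches to the antioxidant response element core. The stretch of Ugdh is chr5:65435950-65436092 (minus strand), that of Osgin1 chr8:119436897-119437117 (plus strand) and that of Srxn1 chr2:152105274-152105515 (plus strand).
Ugdh: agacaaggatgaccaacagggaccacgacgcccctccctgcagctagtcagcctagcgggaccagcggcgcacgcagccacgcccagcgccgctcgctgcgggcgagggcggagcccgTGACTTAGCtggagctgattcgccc
Osgin1: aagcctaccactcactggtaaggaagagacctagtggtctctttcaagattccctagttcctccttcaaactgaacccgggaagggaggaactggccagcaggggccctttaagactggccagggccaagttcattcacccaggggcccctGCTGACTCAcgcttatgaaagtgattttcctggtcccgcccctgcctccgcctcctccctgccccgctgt
Srxn1: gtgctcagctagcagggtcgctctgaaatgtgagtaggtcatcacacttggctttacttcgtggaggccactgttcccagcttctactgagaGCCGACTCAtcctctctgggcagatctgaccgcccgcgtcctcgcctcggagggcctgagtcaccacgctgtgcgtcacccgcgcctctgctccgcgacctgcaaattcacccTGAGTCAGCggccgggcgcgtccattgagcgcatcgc
The match shown for Ugdh ended 123 bases before the start, that of Osgin1 90 bases before, and those of Srxn1 149 and 36 bases before. The other matches were GCACCGTCA in Gclm, 125 bases before the start, GCTTTGTCA in Txnrd1, 83 bases before, GCGTGGTCA in Ugdh, 85 bases before, and GCTAGGTCA in Srxn1, after the start.

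Averaged over the day, Ugdh was the only 1 of the 10 genes called higher in the knockout, and Osgin1, Ephx1, Gsr and Cbr1 were called lower. The remaining 5, Nqo1, Gclc, Gclm, Txnrd1 and Srxn1, did not pass the test. Tests were edgeR quasi-likelihood F-tests, and a call is an adjusted p under 0.05 (Benjamini-Hochberg over the 15090 genes). Over all genes tested, 12.1% were called higher and 21.1% lower, the background against which the counts of 1 and 4 in 10 stand. The median log2 change of the 10 genes was −0.17, against −0.02 over all genes. Only Ugdh and Osgin1 were also called within the 12 libraries of letter P alone.

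Levels are compared between genes per kilobase of the longest annotated transcript (RPKM). In wild type the order was Ephx1 (246 ± 83.4 RPKM), Osgin1 (129 ± 78.95), Gclc (101 ± 38.8), Gclm (55.25 ± 9.96), Txnrd1 (48.9 ± 7.47), Gsr (39.3 ± 10.45), Ugdh (32.9 ± 5.31), Cbr1 (32.1 ± 12.7), Srxn1 (19.65 ± 4.6) and Nqo1 (4.84 ± 1.27; SD, n = 12). Neighbours in this order differed by more than the larger of their SDs in 3 cases, Ephx1 and Osgin1, Gclc and Gclm, and Srxn1 and Nqo1, and the others did not. In the knockout Ephx1 stayed first at 174 ± 21.3 RPKM, followed by Gclc at 91.2 ± 19.2, Gclm at 64.5 ± 4.64, Osgin1 at 63.5 ± 35.7 and Ugdh at 54.8 ± 9.57 RPKM. Osgin1 thus stood at the fourth and Ugdh at the fifth place, where wild type had Gclm and Txnrd1.

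UGDH oxidises UDP-glucose to UDP-glucuronate, the sugar donor that UDP-glucuronosyltransferases attach to drugs, bilirubin and steroids. Ugdh (ENSMUSG00000029201, chr5:65413221-65435949, minus strand; mm10, as for all genes here) ran from 127 to 236 CPM in wild type (median 209) and from 248 to 436 CPM in the knockout (median 317). All 12 knockout libraries lay above all 12 wild-type libraries, which held for 0.596% of the genes tested. The means were 203 ± 32.7 and 337 ± 58.9 CPM (SD, n = 12), a 1.67-fold difference. The log2 change was 0.73 (SE 0.09, edgeR adjusted p = 3.07e-05).

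At ZT12 the 2 wild-type libraries had 127 and 204 CPM and the 2 knockout libraries 414 and 393 CPM, the widest gap of the day for Ugdh (log2 change 1.29, SE 0.21, edgeR adjusted p = 0.00454). At ZT04 the wild-type libraries had 198 and 234 CPM and the knockout libraries 436 and 378.5 CPM (0.92, edgeR adjusted p = 0.0463). At ZT24 the libraries were closest, at 214 and 234 CPM against 248 and 323 CPM (0.35, adjusted p = 1). The knockout was above wild type at 6 of 6 times within letter P and within letter I. Within letter P the log2 change was 0.61 (adjusted p = 0.00041) and within letter I 0.85 (adjusted p = 0.0274). The change was 0.32 (adjusted p = 0.0341) when each library's trends with GC content and transcript length were removed together with the letter. Ugdh has a GC content of 42.9% and the longest transcript of the set, 6156 bases, against medians of 49.2% and 3145 bases over the genes tested. With the same trends removed, the change at ZT04 was 0.33 and no longer called (adjusted p = 0.445), and that at ZT12 was 1.14 (adjusted p = 0.0349).

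**Figure D1:**
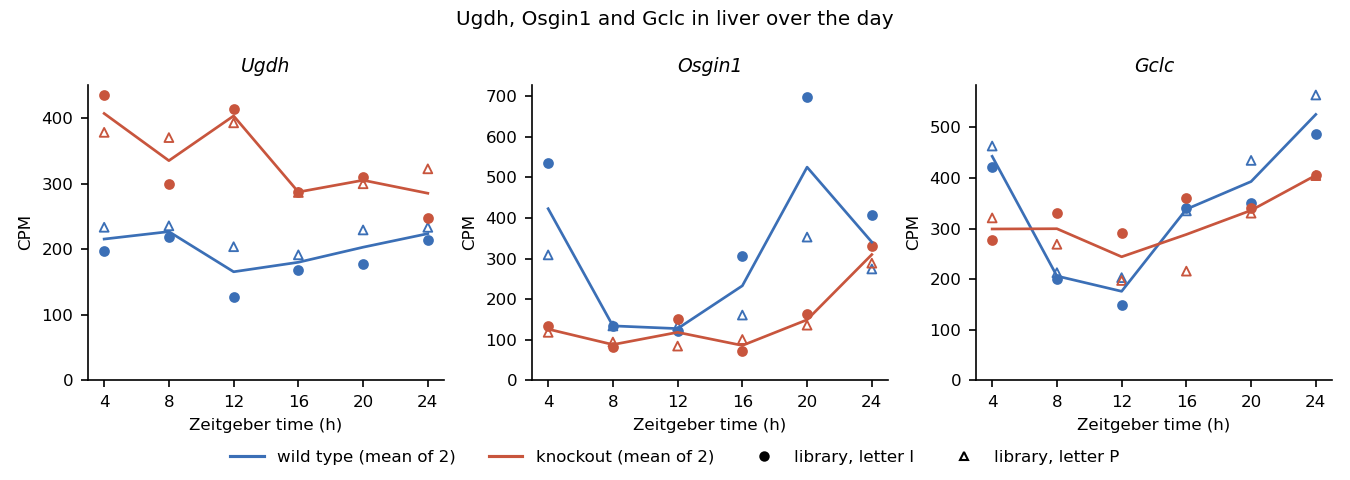
CPM of Ugdh, Osgin1 and Gclc (y axes, from 0) against zeitgeber time in hours (x axes), with 1 point per library and lines through the mean of the 2 libraries of each genotype. All 12 knockout points of Ugdh lie above the wild-type points, both knockout points of Osgin1 lie below both wild-type points at 4 of 6 times, and Gclc runs from 176 to 526 CPM in wild type and from 244 to 405 CPM in the knockout.

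EPHX1 is the microsomal epoxide hydrolase, which turns epoxides made by cytochromes P450 into diols. Ephx1 (ENSMUSG00000038776, chr1:180976210-181020904, minus strand) ran from 289 to 714 CPM in wild type (median 369) and from 244 to 364 CPM in the knockout (median 302). The ranges overlapped, and 3 of 12 knockout libraries were below all wild-type libraries. The means were 429 ± 145 and 304 ± 37.1 CPM (SD, n = 12), with a log2 change of −0.47 (SE 0.13, edgeR adjusted p = 0.0137). The knockout pair was below the wild-type pair at 4 of 6 times, ZT04, ZT16, ZT20 and ZT24. The change was not called at any time, and the smallest adjusted p was 0.0748 at ZT20, where wild type had 714 and 360 CPM and the knockout 244 and 306 CPM. At each of these times the higher wild-type value was that of letter I. At ZT04, ZT16 and ZT20 the GC trend of the wild-type library of letter I was also strongest. Within letter P the log2 change was −0.20 (adjusted p = 0.169), and within letter I −0.70 (adjusted p = 0.0424).

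CBR1 is a cytosolic carbonyl reductase that uses NADPH to reduce quinones, prostaglandins and drug ketones. Cbr1 (ENSMUSG00000051483, chr16:93605853-93610505, plus strand) ran from 34.6 to 121 CPM in wild type (median 63.8) and from 32.2 to 87.9 CPM in the knockout (median 47.3). The ranges overlapped widely, with 2 of 12 knockout libraries below all wild-type libraries. The log2 change was −0.41 (SE 0.13, edgeR adjusted p = 0.0304). At ZT20 wild type had 121 and 61.5 CPM and the knockout 40.6 and 47.3 CPM, while at ZT16 the pairs overlapped at 88.5 and 74.7 against 87.9 and 78.7 CPM. The averaged call was lost in 12 of the 24 fits that each left out 1 library, 6 of which left out a wild-type library of letter I (adjusted p up to 0.0717). Within letter P the log2 change was −0.04 (adjusted p = 0.844), and within letter I −0.74 (adjusted p = 0.0362).

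NQO1 reduces quinones to hydroquinones and is among the most used reporters of NRF2 activity. Nqo1 (ENSMUSG00000003849, chr8:107388225-107403206, minus strand) was the least abundant of the 10, from 5.24 to 11.5 CPM in wild type (median 6.94) and from 4.46 to 8.48 CPM in the knockout (median 7.02). The pairs overlapped at 5 of 6 times, and the knockout was below wild type at ZT08. The log2 change was −0.12 (SE 0.12, edgeR adjusted p = 0.424).

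Glutamate-cysteine ligase makes the dipeptide that limits the rate of glutathione synthesis. GCLC is its catalytic subunit and GCLM its modifier subunit, which raises its affinity for glutamate. Gclc (ENSMUSG00000032350, chr9:77754535-77794485, plus strand) had a wild-type mean of 347 ± 133 CPM and a knockout mean of 312 ± 65.6 CPM (SD, n = 12), a log2 change of −0.06 (SE 0.10, edgeR adjusted p = 0.592). The sign of this small difference turned within letter I, at 0.14 (adjusted p = 0.615), against −0.30 (adjusted p = 0.105) within letter P.

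The Gclc pairs lay apart in both directions over the day. At ZT08 wild type had 199.6 and 213 CPM and the knockout 330.4 and 269 CPM, so the knockout pair was above. At ZT04 wild type had 422.5 and 463 CPM and the knockout 277 and 321 CPM, and at ZT24 wild type had 487 and 564 CPM and the knockout 406 and 405 CPM, so the knockout pair was below. It was also below at ZT20, and the pairs overlapped at ZT12 and ZT16. None of the 6 single-time tests of Gclc passed (adjusted p of 0.258 at ZT04 and 0.548 at ZT08).

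Gclm (ENSMUSG00000028124, chr3:122245557-122270732, plus strand) had a wild-type mean of 309 ± 55.7 CPM and a knockout mean of 361 ± 26 CPM (SD, n = 12), with a log2 change of 0.22 (SE 0.10, edgeR adjusted p = 0.0817). The wild-type libraries of letter I were below those of letter P at all 6 times, at 261 ± 31.1 against 356 ± 20.4 CPM (SD, n = 6). The knockout libraries had 358 ± 21.1 and 364 ± 31.9 CPM. Within letter P the log2 change of Gclm was 0.01 (adjusted p = 0.903), and within letter I 0.46 (adjusted p = 0.0284). It had the opposite sign, −0.20 (adjusted p = 0.0683), when the trends with GC content and length were removed together with the letter.

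GSR regenerates reduced glutathione from its disulfide with NADPH. Gsr (ENSMUSG00000031584, chr8:33652523-33698163, plus strand) ran from 69.1 to 169 CPM in wild type (median 103) and from 65.7 to 108 CPM in the knockout (median 83.6), with overlapping ranges. The log2 change was −0.30 (SE 0.08, edgeR adjusted p = 0.0177). At ZT20 the wild-type libraries had 169 and 109.5 CPM and the knockout libraries 75.7 and 80.2 CPM (log2 change −0.84, SE 0.21, edgeR adjusted p = 0.0414). Without the wild-type library of letter I at ZT20 this change was −0.50 (adjusted p = 0.417). The averaged change was −0.18 (adjusted p = 0.14) within letter P and −0.40 (adjusted p = 0.0834) within letter I, so it was called in neither letter alone.

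TXNRD1 is the cytosolic selenoenzyme that reduces thioredoxin, and SRXN1 restores peroxiredoxins whose active cysteine has been overoxidised. Txnrd1 (ENSMUSG00000020250, chr10:82833951-82897712, plus strand) varied least in the knockout, from 143 to 178 CPM (median 159), and ran from 143 to 242 CPM in wild type (median 171). Its log2 change was −0.14 (SE 0.06, edgeR adjusted p = 0.106). With the trends with GC content and length removed together with the letter, Txnrd1 was called lower, at −0.22 (adjusted p = 0.0297), as the fifth gene of the 10. Srxn1 (ENSMUSG00000032802, chr2:152105516-152111376, plus strand) ran from 33.55 to 76.7 CPM in wild type (median 51.3) and from 39.1 to 66 CPM in the knockout (median 45.6). Its log2 change was −0.21 (SE 0.11, edgeR adjusted p = 0.127). For both genes the wild-type library of letter I was above that of letter P at 6 of 6 times. Within letter P the log2 changes were −0.04 for Txnrd1 (adjusted p = 0.718) and 0.06 for Srxn1 (adjusted p = 0.667). Within letter I Srxn1 was called lower (−0.45, adjusted p = 0.0373) and Txnrd1 was not (−0.24, adjusted p = 0.125).

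OSGIN1 is an oxidative stress-induced growth inhibitor and a known NRF2 target. Osgin1 (ENSMUSG00000074063, chr8:119434124-119446256, plus strand) ran from 122 to 698 CPM in wild type (median 289.8) and from 71.1 to 331 CPM in the knockout (median 126). The ranges overlapped, and 6 of 12 knockout libraries were below all wild-type libraries. The means were 297 ± 182 and 146 ± 82.2 CPM (SD, n = 12), a 2.03-fold difference, the widest of the 10 genes. The log2 change was −0.98 (SE 0.15, edgeR adjusted p = 0.000452).

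The Osgin1 difference was wide at ZT04, ZT16 and ZT20 and small at ZT12 and ZT24. At the wide times the GC trend of the wild-type library of letter I was also strongest. The part of that trend in the time pattern of Osgin1 was not tested beyond the values given below for its removal. At ZT20 wild type had 698 and 353 CPM and the knockout 162 and 136 CPM (log2 change −1.82, SE 0.39, edgeR adjusted p = 0.0237). At ZT04 wild type had 537 and 309 CPM and the knockout 134 and 118 CPM (−1.75, SE 0.38, adjusted p = 0.0387). At ZT16 the values were 305 and 161 CPM against 71.1 and 101 CPM (−1.44, adjusted p = 0.0784). At ZT24 the pairs overlapped, at 407 and 274 CPM against 331 and 289 CPM (−0.14, adjusted p = 1). Without the wild-type library of letter I at ZT20 the ZT20 change was −1.25 (adjusted p = 0.269), and without that of ZT04 the ZT04 change was −1.29 (adjusted p = 0.344). Averaged over the day, Osgin1 was called within letter P (−0.77, adjusted p = 0.0116) and within letter I (−1.16, adjusted p = 0.0429). With the trends with GC content and length removed together with the letter it was −0.61 (adjusted p = 0.000383), and at ZT20 it was −1.08 (adjusted p = 0.0193). Osgin1 has the highest GC content of the set, 59.2%.

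**Figure D2:**
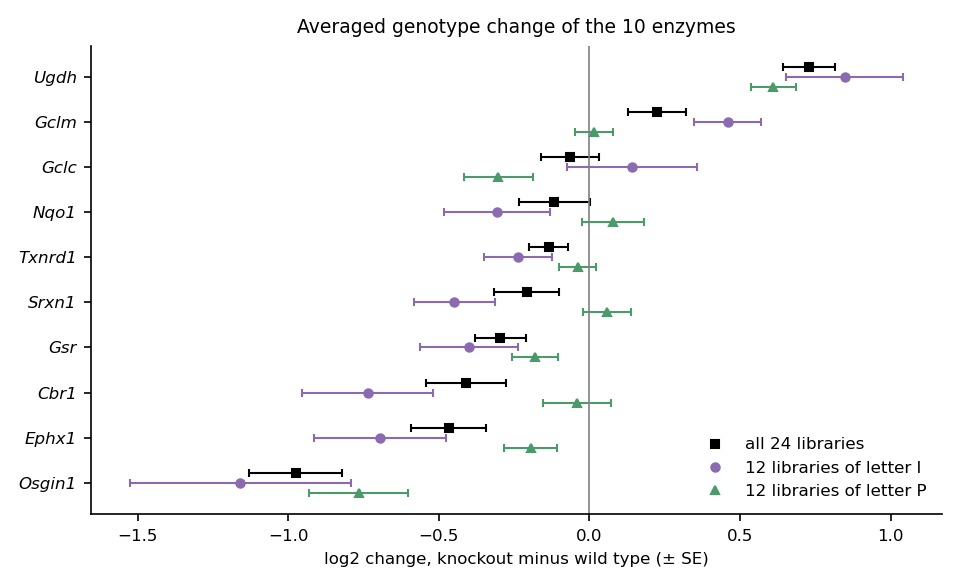
Log2 change, knockout minus wild type, averaged over the day (x axis, points with SE bars) for each of the 10 genes (y axis), from all 24 libraries, the 12 of letter I and the 12 of letter P. Ugdh lies above 0 and Osgin1 below 0 in all 3 fits, while Cbr1 and Srxn1 lie near 0 in letter P and at −0.74 and −0.45 in letter I.

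The letters divided the wild-type libraries of most of the 10 genes. In wild type the library of letter I was above that of letter P at 6 of 6 times for Cbr1, Ephx1, Gsr, Txnrd1 and Srxn1, at 5 of 6 for Nqo1 and Osgin1, at 1 of 6 for Gclc and at 0 of 6 for Ugdh and Gclm. The wild-type mean of letter I was 1.61 times that of letter P for Osgin1, 1.51 times for Cbr1 and 1.51 times for Ephx1. In the knockout no gene of the 10 had the library of letter I above or below that of letter P at all 6 times. Within letter P 1 gene was called higher and 1 lower, beside 6.7% and 6.31% of all genes. Within letter I 2 were called higher (Ugdh and Gclm) and 4 lower (Cbr1, Ephx1, Srxn1 and Osgin1), beside 17.6% and 16.1% of all genes. With the trends with GC content and length removed together with the letter, Cbr1, Ephx1 and Gsr stayed called lower. Their changes were −0.46 for Cbr1 (edgeR adjusted p = 0.0164), −0.32 for Ephx1 (adjusted p = 0.0105) and −0.33 for Gsr (adjusted p = 0.00387). In the same fit Nqo1, Gclc and Srxn1 stayed uncalled. Their changes were −0.23 for Nqo1 (adjusted p = 0.177), −0.23 for Gclc (adjusted p = 0.0552) and −0.11 for Srxn1 (adjusted p = 0.252). Whether the change of a gene differed between the letters was not tested. The part of the GC trend in these results was not tested beyond the values given for its removal.

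**Figure D3:**
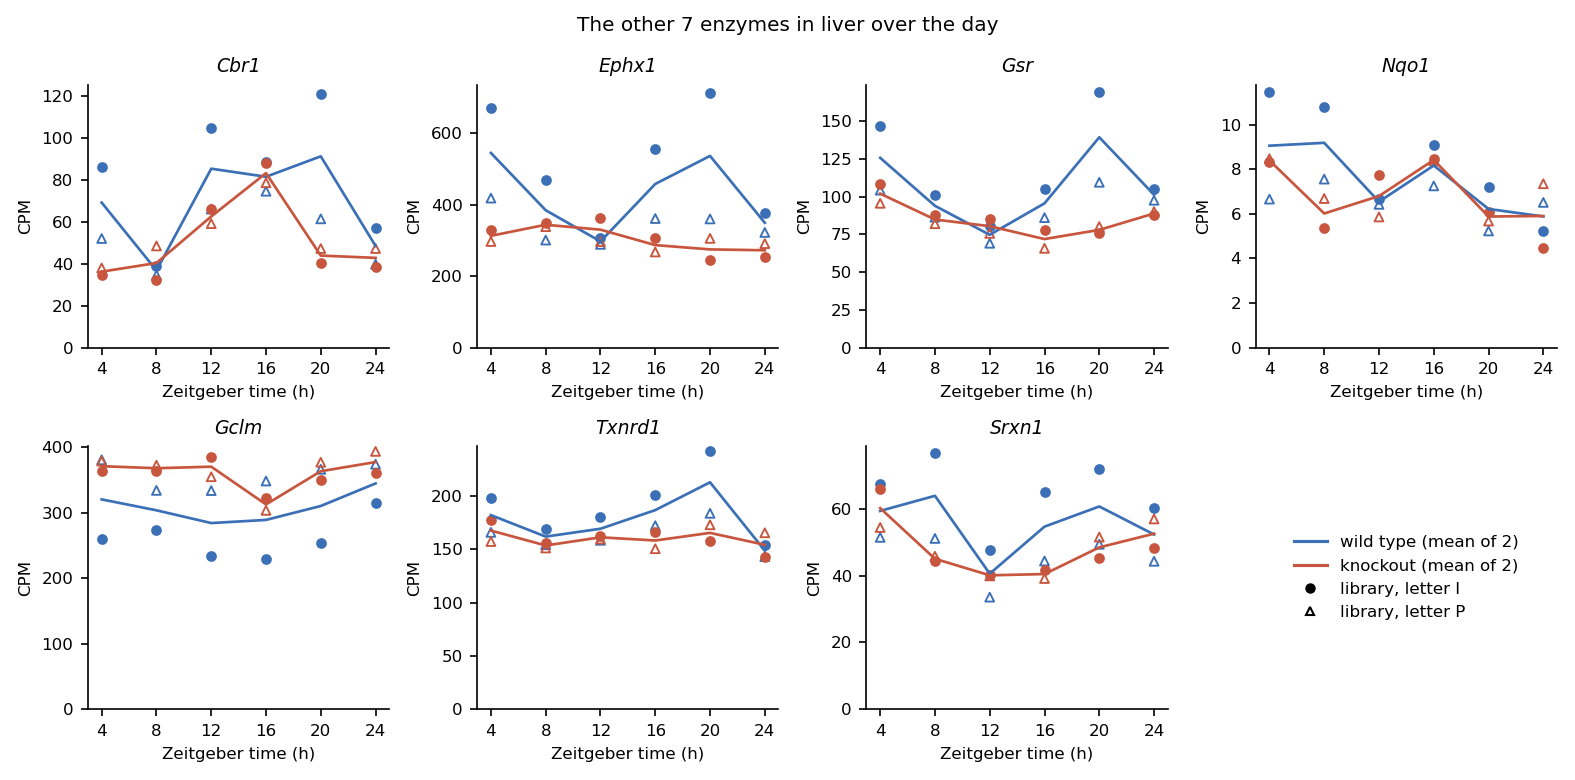
CPM of the other 7 genes (y axes, from 0) against zeitgeber time in hours (x axes), with 1 point per library and lines through the mean of the 2 libraries of each genotype. Filled wild-type circles (letter I) lie above open wild-type triangles (letter P) at all 6 times for Cbr1, Ephx1, Gsr, Txnrd1 and Srxn1, and below them at all 6 for Gclm.

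At single times, 5 of the 60 pairs of gene and time were called, 2 higher (Ugdh at ZT04 and ZT12) and 3 lower (Osgin1 at ZT04 and ZT20, Gsr at ZT20). The shares of all genes called higher and lower were 0.563% and 0.696% at ZT04, 0.331% and 0.603% at ZT08, 0.696% and 1.15% at ZT12, 0.643% and 1.01% at ZT16, 1.46% and 2.47% at ZT20, and 0.292% and 0.384% at ZT24. At ZT08, ZT16 and ZT24 edgeR called 0 of the 10 genes, with 2, 3 and 0 of them at an unadjusted p under 0.05, and DESeq2 called 0, 1 and 0. The median log2 change of the 10 genes was lowest at ZT20, at −0.34, where that of all genes was 0.0014. The GC trend of the wild-type library of letter I was also strongest at ZT20 (r of 0.648). Leaving out each library in turn ended the call of Ugdh at ZT04 in 20 of 24 fits, of Osgin1 at ZT04 in 12, of Gsr at ZT20 in 5 and of Osgin1 at ZT20 in 3. That of Ugdh at ZT12 ended in 2, without the wild-type library (0.99, adjusted p = 0.0813) or the knockout library (1.24, adjusted p = 0.0615) of letter I at ZT12.

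**Figure D4:**
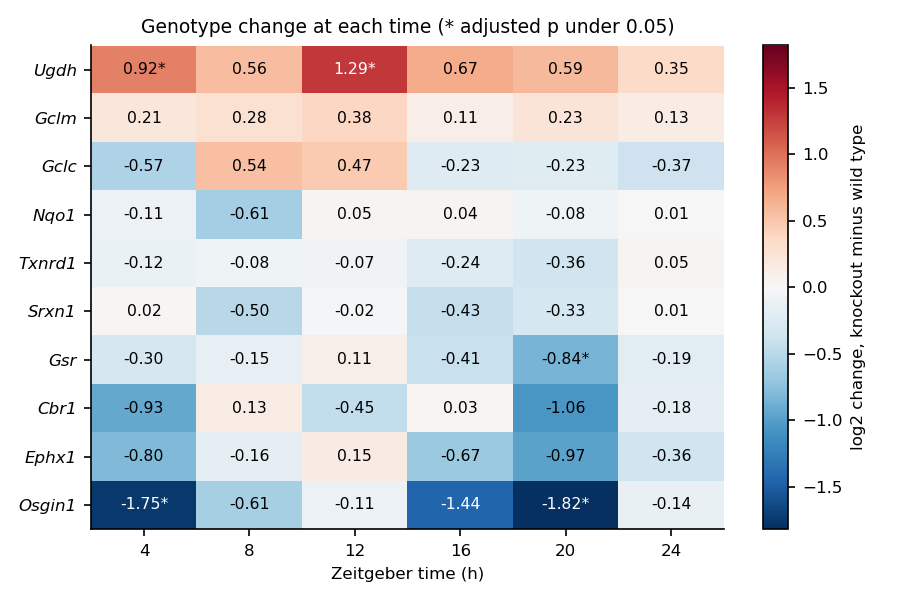
Log2 change, knockout minus wild type (colour and printed value), of the 10 genes (vertical) at each zeitgeber time in hours (horizontal), with a star where the edgeR adjusted p was under 0.05. Ugdh is above 0 at all 6 times, Osgin1 is below 0 at all 6, and 5 of the 60 cells carry a star.

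Gclc and Osgin1 were the 2 of the 10 genes called rhythmic in wild type, beside 8.67% of all genes, in a fit of a cosine curve with a period of 24 h. Both peaked late in the night. The wild-type Gclc curve had a log2 amplitude, the height of the peak above the mean, of 0.76 and a peak at ZT 23.2 (edgeR adjusted p = 0.000507). Its mean level ran from 176 CPM at ZT12 to 526 CPM at ZT24, a 2.99-fold range. The wild-type Osgin1 curve had an amplitude of 1.04 and a peak at ZT 22.9 (edgeR adjusted p = 0.0135), and its mean level ran from 127 CPM at ZT12 to 525 CPM at ZT20, a 4.12-fold range. Within letter P both were called, with amplitudes of 0.75 (adjusted p = 0.00164) and 0.76 (adjusted p = 0.0465). Within letter I, where 0 of all genes were called, the amplitudes were 0.77 (adjusted p = 0.274) and 1.26 (adjusted p = 0.386).

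In the knockout 0 of the 10 genes were called rhythmic by edgeR, beside 3.57% of all genes. Within letter P 2 of the 10 were called in the knockout, as many as in wild type, beside 789 and 818 of all genes. With wild-type libraries of letter P only, 4 were called in the knockout and 1 in wild type, beside 2739 and 762 of all genes. The balance of these counts between genotypes thus changed with the libraries used. At an unadjusted p under 0.05 there were 3 (Cbr1, Gclc and Osgin1), beside 2263 of all genes. The knockout curve of Gclc had an amplitude of 0.28 and a peak at ZT 23.6 (adjusted p = 0.316), and its mean level ran from 244 to 405 CPM, a 1.66-fold range. That of Osgin1 had an amplitude of 0.69 and a peak at ZT 23.7 (adjusted p = 0.097), and its mean level ran from 85.9 CPM at ZT16 to 310 CPM at ZT24. DESeq2 called 1 of the 10 in the knockout, Osgin1 (adjusted p = 0.0252), beside 995 of all genes. In wild type DESeq2 called 3, with Gsr as the third (adjusted p = 0.0392), beside 1909 of all genes.

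The difference in rhythm between genotypes was not called for any of the 10 genes, nor for any gene tested (0%). For Gclc its unadjusted p was 0.0171 and its adjusted p 0.844, and for Osgin1 the unadjusted p was 0.423. Gclc was the 1 gene of the 10 at an unadjusted p under 0.05, beside 791 of all genes, and DESeq2 called 0 of the 10 and 23 of all. The test of any genotype by time interaction also called none of the 10 and none of all genes (0%). At an unadjusted p under 0.05 there were 2 of the 10, Gclc and Osgin1, beside 966 of all genes. Their edgeR adjusted p values were 0.666 and 0.583. DESeq2 called 0 of the 10 and 129 of all. A difference in rhythm was therefore not shown for these genes.

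Nfe2l2, the gene of NRF2 itself, was not called and Keap1, the gene of its repressor, was. Nfe2l2 had 68.9 ± 7.73 CPM in wild type against 74 ± 7.86 in the knockout (SD, n = 12; log2 change 0.10, edgeR adjusted p = 0.178). Keap1 was lower, at 43 ± 9.26 against 34.8 ± 2.68 CPM (−0.30, edgeR adjusted p = 0.0233). Keap1 was called in neither letter alone, with −0.16 (adjusted p = 0.119) within letter P and −0.42 (adjusted p = 0.0594) within letter I. Of the 15 genes for NRF2 and its regulators, 1 was higher, Gsk3b, a kinase that marks NRF2 for degradation (0.26), and 5 were lower. The lower ones included Rbx1, a subunit of the KEAP1 ubiquitin ligase (−0.33), and Sqstm1, the autophagy adaptor that binds KEAP1 (−0.34). The list's median was −0.10, and within letter P 0 of its genes were called, with 3 at an unadjusted p under 0.05.

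The counts of the other lists stand beside 12.1% of all genes called higher and 21.1% lower, and within letter P beside 6.7% and 6.31%. Of 18 tested genes of glutathione synthesis, breakdown and use, 2 were higher, 7 lower and 9 not called (median −0.20), the lower ones including Glrx, a glutaredoxin (−0.66), Gpx1, the main cytosolic glutathione peroxidase (−0.52), Slc25a39, which carries glutathione into mitochondria (−0.48), and Cth, which makes cysteine from cystathionine (−0.36). Of 21 genes of the thioredoxin, peroxiredoxin and superoxide dismutase systems, 1 was higher, 14 lower and 6 not called (median −0.30). The lower ones were led by Prdx3, the mitochondrial peroxiredoxin (131 ± 16.4 against 86.2 ± 5.38 CPM, −0.60, edgeR adjusted p = 3.74e-05), Sod2 (−0.50), Sod1 (−0.46) and Txn2, the mitochondrial thioredoxin (−0.57). Within letter P, 1 was higher and 3 lower in the glutathione list, and 1 higher and 6 lower in the thioredoxin list.

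NADPH is the reductant of Nqo1, Cbr1, Gsr and Txnrd1. Of 17 tested enzymes that supply it, 2 were higher, 5 lower and 10 not called (median −0.16), beside 12.1% higher and 21.1% lower over all genes. Within letter P 3 were higher and 4 lower (median 0.08), beside 6.7% and 6.31%. Me1, malic enzyme, was higher at 221 ± 51.2 against 151 ± 68.7 CPM (0.61, edgeR adjusted p = 0.0034). Aldh1l1, a folate-linked dehydrogenase (−0.65), Nadk, the NAD kinase (−0.53), and Idh2, the mitochondrial isocitrate dehydrogenase (−0.52), were lower.

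Around Ugdh, 13 further genes of UDP-glucuronate supply and use held 2 higher and 3 lower (median −0.10). The called genes with the smallest p were Gusb, lysosomal glucuronidase (−0.36), Gulo, the last enzyme of vitamin C synthesis (−0.45), Slc35b1, an endoplasmic reticulum nucleotide transporter (−0.38), and Rgn, a gluconolactonase (0.27). Within letter P 1 of the 13 was higher and 0 lower, with 1 lower at an unadjusted p under 0.05. Of 15 tested enzymes of carbonyl, quinone and epoxide metabolism, 1 was higher and 5 lower (median −0.09). Hsd11b1, which regenerates active glucocorticoid and also reduces carbonyl drugs, had 728 ± 168 CPM in wild type against 370.2 ± 31.3 in the knockout (−0.96, edgeR adjusted p = 5.19e-06). Akr1b3, aldose reductase (−0.67), and Ephx2, the soluble epoxide hydrolase (−0.39), were lower, and Ptgr2, a prostaglandin reductase, was higher (0.34). Within letter P 0 of these 15 were higher, with 2 at an unadjusted p under 0.05, and 1 was lower.

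Of 15 tested NRF2 targets of other functions, 2 were higher and 4 lower (median −0.09), with 1 of each within letter P. Aox1, aldehyde oxidase (0.69), and Abcc2, the canalicular export pump for conjugates (0.42), were higher, and Blvrb, a biliverdin reductase (−0.26), was lower. Ftl1, the ferritin light chain, was lowest, at 368 ± 123 against 78.6 ± 6.77 CPM (SD, n = 12; −2.20, edgeR adjusted p = 1.53e-08). Ftl1 lies 247 kb from Dbp on chromosome 7 and has processed copies among which reads may be divided. The copy Ftl1-ps1 went from 3.98 to 0.0142 CPM and Ftl1-ps2 from 0.0449 to 2.56 CPM, so the Ftl1 value is uncertain. The 10 genes themselves lie on chromosomes 1, 2, 3, 5, 8, 9, 10 and 16, and none on 7, 11 or 15, which carry Dbp, Hlf and Tef.

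Among the 10, Pearson's r was taken over the 12 group means of log2 CPM, which vary with genotype as well as time. It was highest for Ugdh with Gclm (0.867), followed by Ephx1 with Gsr (0.825), Gsr with Osgin1 (0.807) and Gsr with Srxn1 (0.801). Over the 6 wild-type and the 6 knockout means, r was 0.806 and 0.42 for Ugdh with Gclm, and 0.881 and 0.235 for Ephx1 with Gsr. It was 0.912 and 0.359 for Gsr with Osgin1, and 0.732 and 0.865 for Gsr with Srxn1. Gclc and Osgin1 had r of 0.728, and 0.889 and 0.808 over the 6 wild-type and the 6 knockout means. Among 10680 genes of at least 1 in mean log2 CPM, the pattern most like that of Ugdh was Cpne8 (0.959), followed by Vezt (0.945) and Spg11 (0.927). For Osgin1 these were Rbpms (0.936), Cars2 (0.921) and Dpp9 (0.918), for Gclc Galt (0.92), Wdr91 (0.913) and Khnyn (0.908), and for Ephx1 Rbm19 (0.966), Psmb6 (0.956) and Tyw1 (0.955). For Gsr they were Gjb1 (0.968), Psmd3 (0.964) and Psmd2 (0.959), and for Gclm Car8 (0.965), Ptprs (0.929) and Scp2 (0.918). For Txnrd1 they were Tcn2 (0.973), F7 (0.946) and Ctsd (0.944), for Cbr1 H2afz (0.918), Porcn (0.913) and Dusp28 (0.911), for Srxn1 Cpsf3 (0.916), Gstm2 (0.907) and Agk (0.907), and for Nqo1 Flna (0.885), Fancf (0.796) and Ccnq (0.781). The points share libraries, depth and base composition, and these values are descriptions of likeness only.

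Markers of other liver cells were measured beside these genes. Their counts stand beside 12.1% of all genes called higher and 21.1% lower. Pericentral hepatocyte markers summed to 9803 to 20470 CPM in wild type and 10110 to 15780 CPM in the knockout, with 1 of 10 called higher and 3 lower. Periportal markers summed to 5763 to 11930 and 5439 to 7944 CPM, with 0 of 10 higher and 3 lower. Kupffer cell markers summed to 520 to 984 and 561 to 842 CPM, with 3 of 10 higher and 0 lower. Cholangiocyte markers summed to 23 to 67.9 and 31.8 to 79.3 CPM, with 1 of 9 tested higher and 1 lower. Lymphocyte markers summed to 4.3 to 13.1 and 2.19 to 10.9 CPM, with 0 of 10 higher and 4 lower. Stellate cell markers summed to 391 to 524 and 409.9 to 567 CPM, with 1 of 10 higher and 2 lower. Endothelial markers summed to 423 to 544 and 476 to 628 CPM, with 1 of 10 higher and 0 lower, and erythroid markers to 160 to 338 and 147 to 418.5 CPM, with 1 of 6 higher and 0 lower. The part of cell makeup in the changes of the 10 genes was not tested. The deposited counts cannot separate all overlapping genes: GENCODE places other annotated genes over Ugdh, Gclm, Txnrd1, Ephx1 and Gsr, and whether the counting used the strand is not given in the sources used here.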

How the data were processed

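Liver mRNA was sequenced in 24 libraries, 12 per genotype, from a stranded mRNA kit (TruSeq) per the labels. Their values are the raw, unnormalized counts that the authors deposited, 1 column for each library. The submitters' processing notes name STAR 2.4.0i and mm10. Not given in the sources used here are the counter, its annotation and its strand option. Symbols, coordinates, transcript lengths and GC content came from GENCODE M21 of the same build, in which 54495 of 54532 identifiers matched.

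Groups and letters came from the labels. The main tests used edgeR 4.0.16 in R 4.3.3 (quasi-likelihood F) with TMM scaling and filterByExpr at a minimum of 10 counts, adjusted over all 15090 genes. The fit of 12 group means gave the averaged, single-time and interaction tests. A fit of cosine and sine terms per genotype gave the rhythm tests. Within a letter, genotype and time were additive. SE is the log2 change divided by the root of F. CPM used TMM-scaled totals. The fits were tested on simulated data with known changes, the same spread for all genes and no effect of letter or GC content. That test does not cover the GC trend of the wild-type libraries of letter I.

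The 10 genes and all other lists were chosen with earlier results of these data known. All 10 were named in every group. Of each other list, up to 4 called genes with the smallest p were named, and Nfe2l2 and Keap1 always. Of like patterns, the 3 highest r per gene were named. Alternatives were 2 other scalings, no filter, DESeq2 1.42.0, a replicate block with and without slopes for GC content and length (GC content and length were known for 99.94% of the genes tested), each letter alone, any difference among times, and leaving out each library. Wild-type libraries of letter P only were added after seeing the data.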

Additional observations from a re-analysis of the deposited data

How the results depend on the processing

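The averaged calls of Ugdh, Osgin1, Ephx1 and Gsr held in all 24 fits that each left out 1 library, under both other scalings, without the filter, with the replicate block and with DESeq2. These settings keep all or most wild-type libraries of letter I, and the block is shared by both genotypes. They therefore do not remove a trend confined to those libraries. Within letter P, and with wild-type libraries of letter P only, Ugdh and Osgin1 stayed called and Ephx1 and Gsr did not. The count of 1 gene higher became 2 with the replicate block, where Gclm was also called (0.24, adjusted p = 0.0184), and within letter I, and 1 to 2 on leaving out a library. The count of 4 lower became 1 within letter P and 1 with wild-type libraries of letter P only, and 3 to 6 on leaving out a library. The 5 calls at single times became 3 with upper-quartile scaling, 9 without the filter, 9 with the replicate block, 3 with wild-type libraries of letter P only, 8 with DESeq2, and 1 to 10 on leaving out a library (10 without the wild-type library of letter P at ZT20). The 0 genes with an interaction became 1 without the filter. The 2 genes rhythmic in wild type became 0 within letter I, 1 with wild-type libraries of letter P only, and 2 to 4 on leaving out a library. The 0 rhythmic in the knockout became 2 without the filter, 1 with the block and slopes for GC content and length, 2 within letter P, 4 with wild-type libraries of letter P only, 1 in the test of any difference among times, 1 with DESeq2, and 0 to 2 on leaving out a library. The 54 called genes of the other lists became 22 within letter P, 30 with wild-type libraries of letter P only, and 38 to 82 on leaving out a library. Signs turned for Gclm with the block and slopes (−0.20), for Nqo1 and Srxn1 within letter P (0.0791 and 0.0584) and with wild-type libraries of letter P only (0.0489 and 0.0587), and for Gclc within letter I (0.14) and without the knockout library of letter P at ZT16 (0.0065), its range on leaving out a library being −0.12 to 0.0065. None of these was called. The cause of these shifts was not tested. Counts over all genes moved too. Genes with an interaction were 0 of 15090 in the main fit and 639 of 30686 without the filter. Genes rhythmic in the knockout were 538 of 15090 in the main fit. They were 733 of 30686 without the filter, 971 with the block and slopes, and 995 with DESeq2. Their count also rose within letter P, to 789, where 818 genes were rhythmic in wild type. With wild-type libraries of letter P only it was 2739, against 762 in wild type. In the main fit 1308 genes were rhythmic in wild type. Over all genes, 1827 were higher and 3180 lower, against 3794 and 4104 with the replicate block, 1011 and 952 within letter P, and 3605 and 2631 without the filter.

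Libraries of the same letter and time in the 2 genotypes deviated together from their group means at r of 0.184 (ZT04), 0.123 (ZT08), 0.231 (ZT12), 0.0705 (ZT16), 0.0541 (ZT20) and 0.0842 (ZT24), so not all were above 0.1; the letters were not treated as a pairing.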
